A study of Mus musculus with 209 samples.

Results

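Peritoneal macrophages taken from mice 2 h after an injection of interleukin-1 beta (IL1b) were set directly against the same cells from mice injected with tumour necrosis factor alpha (TNFa). The libraries were chosen by their titles alone: 3 IL1b and 3 TNFa libraries of the cells named MFpc in the 2 h cytokine screen, 6 of the 209 libraries of the series. All genes were compared, and 12079 of the 55011 genes in the count table had enough reads to be tested. The animals were C57BL/6 mice (C57Bl/6J in the protocol), 5 to 8 weeks old. They received 5 µg of IL1b or TNFa in 120 µL of PBS into a vein, or 120 µL of PBS alone, and all cells analysed in the screen were collected 2 h later. Each library was made by the low-input protocol from 1000 cells that were sorted 2 times from the peritoneal cavity. The 5 PBS libraries of the same cells gave the background level, and 3 libraries from mice given 5 µg of IL6 entered the fit to estimate the spread between libraries. Both cytokines were given once at 1 dose and reached the whole animal, so direct effects on the macrophages and effects through other cells cannot be told apart. The labels do not say that the libraries came from separate mice, and the p-values therefore measure the spread between libraries, which may be technical. In bulk libraries of sorted cells, fewer cells of a type and less RNA per cell cannot be told apart.

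IL1b and TNFa are both early inflammatory cytokines of macrophages. IL1b binds a receptor made of Il1r1 and Il1rap and signals through the adaptor Myd88 and the kinases of the Irak family, while TNFa binds Tnfrsf1a and Tnfrsf1b and signals through Traf and Birc proteins. Both routes end at the kinases that release the transcription factor NF-kB from its inhibitors, and NF-kB then raises cytokines and chemokines together with its own inhibitors, among them Nfkbia and Tnfaip3. Peritoneal macrophages of the large type are long-lived resident cells that depend on the transcription factor Gata6 and take up dying cells in the body cavity.

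Sequencing depth was similar. The 14 libraries of these cells held between 5836374 and 7794796 counts, from 5836374 to 6142864 with IL1b and from 6368224 to 6924555 with TNFa. The IL1b libraries were thus all somewhat shallower than the TNFa libraries, and the part of this gap in the results was not tested beyond thinning all libraries to the smallest total, after which 1929 genes were called against 1955. Mitochondrial transcripts took 0.654% to 0.724% of the counts with IL1b and 0.618% to 0.801% with TNFa. The first principal component, 56.2% of the variance, ran from the PBS libraries (-52.3 to -47.6) over IL1b (31.5 to 42.5) to TNFa (71.9 to 80.1). On the second, 8.58% of the variance, TNFa (17.92 to 20.35) lay within the PBS range (13.65 to 21.97). IL1b (-23.46 to -20.43) lay apart from both there, near IL6 (-25.43 to -22.33). The label of the cells fitted their markers: 8 of 8 large peritoneal macrophage markers were detected in all 3 groups, with summed levels of 16545 to 18489 CPM (read counts scaled to a common total per library) with IL1b, 18520 to 20828 with TNFa and 19362 to 20539 with PBS. Markers of small peritoneal macrophages and monocytes summed to 139 to 152 CPM with IL1b, 71.2 to 106 with TNFa and 110 to 226 with PBS. Markers of B cells, T cells, NK cells, mast cells, neutrophils and eosinophils summed to at most 7.19 CPM in any IL1b or TNFa library. Among the NK cell markers, 4 of 5 were at 0 in all IL1b libraries and 5 of 5 in all TNFa libraries.

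Promoter sequences of 4 genes that differed between the cytokines are shown first. Il6 and Tnf encode cytokines that were far higher with TNFa, Tnfaip3 encodes the A20 inhibitor of NF-kB, and Sesn1, a stress-response gene, was lowered by both cytokines and far more by TNFa. Each line holds 300 bases, from 250 before the start of transcription to 50 after it, read 5′ to 3′ on the gene's strand from RefSeq (GRCm38.p6). Capitals mark every match, on either strand, to a loose NF-kB pattern, GGG and CC with any 5 bases between them, and touching or overlapping matches run together.
Il6, chr5:30012864-30013163, plus strand: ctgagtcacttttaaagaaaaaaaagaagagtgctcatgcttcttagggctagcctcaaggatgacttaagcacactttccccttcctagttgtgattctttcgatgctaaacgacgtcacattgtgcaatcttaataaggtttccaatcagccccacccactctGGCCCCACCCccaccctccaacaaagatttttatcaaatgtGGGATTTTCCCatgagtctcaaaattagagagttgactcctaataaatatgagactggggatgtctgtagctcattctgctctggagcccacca
Tnf, chr17:35201958-35202257, minus strand: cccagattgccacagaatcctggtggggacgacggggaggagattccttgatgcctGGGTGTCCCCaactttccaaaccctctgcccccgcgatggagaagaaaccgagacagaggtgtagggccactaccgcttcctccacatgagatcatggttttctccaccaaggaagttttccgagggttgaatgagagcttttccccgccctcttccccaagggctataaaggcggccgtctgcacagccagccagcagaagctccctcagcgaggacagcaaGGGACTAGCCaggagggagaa
Tnfaip3, chr10:19015361-19015660, minus strand: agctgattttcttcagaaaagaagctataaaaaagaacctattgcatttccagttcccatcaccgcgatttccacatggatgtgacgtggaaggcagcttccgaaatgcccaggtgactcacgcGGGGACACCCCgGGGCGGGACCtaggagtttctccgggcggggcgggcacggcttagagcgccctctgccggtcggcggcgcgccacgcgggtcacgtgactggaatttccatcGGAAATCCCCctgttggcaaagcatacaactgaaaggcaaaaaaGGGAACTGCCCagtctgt
Sesn1, chr10:41887189-41887488, plus strand: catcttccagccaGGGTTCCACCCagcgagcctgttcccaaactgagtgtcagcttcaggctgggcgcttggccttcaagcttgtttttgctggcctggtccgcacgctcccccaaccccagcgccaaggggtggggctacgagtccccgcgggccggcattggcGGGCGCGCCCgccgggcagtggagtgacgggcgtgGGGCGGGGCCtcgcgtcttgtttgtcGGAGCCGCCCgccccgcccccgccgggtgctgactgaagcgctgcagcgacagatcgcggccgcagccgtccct
The windows held 3 matches for Il6, 2 for Tnf, 6 for this start of Tnfaip3 and 5 for this start of Sesn1. The window at the other start of Tnfaip3, chr10:19011914-19012213, held 2. That at the other start of Sesn1, chr10:41810324-41810623, held 0. The pattern is common: 50.8% of all 32851 promoter windows of the table held it, and 66.7% of the 11581 windows of genes tested here. It was found in 65.4% of the windows of genes higher with IL1b, in 69.5% of those of genes higher with TNFa and in 66.6% of those of genes tested and not called. Among the 15 named genes higher with IL1b, 9 had an entry in the table, with 13 windows, and 7 of the 9 held a match in any window. Among the 15 higher with TNFa, 9 had an entry, with 11 windows, and 8 of the 9 held a match. Counts of genes, some with several windows, cannot be set against shares of windows. A pattern of STAT factors, TTC and GAA with any 3 bases between them, was in 8.3% of all windows, in 1 of the 9 IL1b genes (Serpina3g) and in 0 of the 9 TNFa genes. A match is a description of the letters in the window and not evidence of binding.

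The direct comparison found large numbers of genes on both sides. By edgeR's quasi-likelihood test with Benjamini-Hochberg adjustment over all genes, 1955 genes differed between IL1b and TNFa at an adjusted p under 0.05, which is 16.2% of those tested. Of these, 1011 genes (8.37% of all) were higher with IL1b and 944 (7.82%) higher with TNFa. The IL1b and TNFa libraries did not overlap for 1876 of the 1955 called genes, against 31.4% of all genes tested. The calls rest on the same libraries, so this is no separate support for them. A difference of over 2-fold was called for 430 genes higher with IL1b and 289 higher with TNFa, and one of over 4-fold for 106 and 80. The median log2 difference was 0.91 for the genes higher with IL1b and -0.71 for those higher with TNFa. Among genes whose higher group averaged 20 CPM or more, the folds at the top were larger for TNFa, up to a log2 difference of -5.23 for Gem, than for IL1b, up to 3.96 for Ccl7. Leaving out 1 of the 6 libraries at a time gave between 1333 and 1912 calls.

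**Figure D1:**
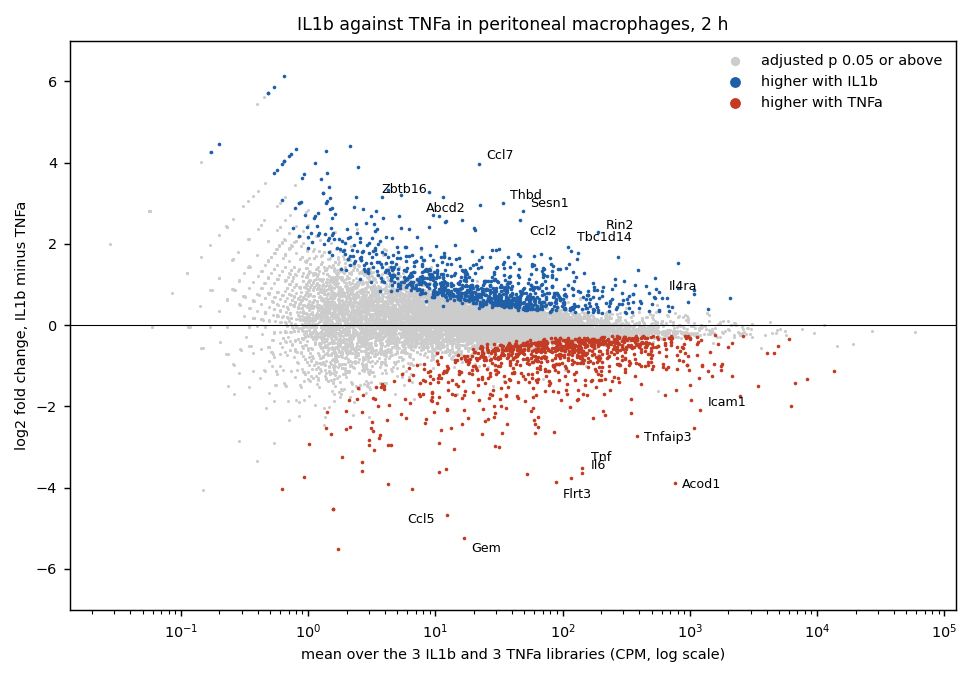
Log2 fold change, IL1b minus TNFa, of every gene tested against its mean level over the 6 libraries (CPM, log axis). Each point is a gene, blue where higher with IL1b and red where higher with TNFa at an adjusted p under 0.05. The 1011 blue and 944 red points lie on both sides of 0, and Gem, Ccl5, Acod1, Flrt3, Tnf and Il6 stand far below it.

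The ligands of both routes were among the genes that differed. Tnf, which encodes TNFa itself (chr17:35199381-35202007, minus strand, GRCm38), stood at 1.86, 0.578, 3.04, 2.16 and 2.53 CPM in the PBS libraries, 28.3, 18.8 and 20.9 with IL1b and 201, 250.5 and 326 with TNFa. Each cytokine lifted it above every PBS library, and the TNFa libraries lay far above the IL1b libraries with no overlap. Its mean was 11.4 times as high with TNFa as with IL1b, a log2 difference of -3.51 ± 0.23 (SE, adjusted p = 3.5e-09, edgeR). Il1a, which encodes the other ligand of the IL1 receptor, was at 30.3, 22.9 and 17.8 CPM with IL1b and 159.9, 139.9 and 141 with TNFa, over 5.89 to 10.2 with PBS. It too rose with both and rose more with TNFa, the direct log2 difference being -2.64 ± 0.20 (adjusted p = 4.11e-08). Il1b itself gave 0, 0.289, 0.152, 0 and 0 CPM with PBS, 27.1, 6.89 and 12.1 with IL1b and 25.8, 16.7 and 27.4 with TNFa. The gene was near 0 in every PBS library and present in all cytokine libraries, whose groups overlapped. Its direct log2 difference of -0.60 ± 0.39 missed the threshold (adjusted p = 0.334), but passed it at -1.32 without the first IL1b library (adjusted p = 0.0291). Il1rn, the soluble antagonist of the IL1 receptor, reached 111, 91.1 and 114 CPM with IL1b and 53.3, 64.6 and 74.9 with TNFa from 0.841 to 5.61 with PBS. The IL1b libraries were the higher ones with no overlap, but the call was marginal (log2 0.71 ± 0.24, adjusted p = 0.0492) and was lost without any single one of the 6 libraries, with adjusted p from 0.0637 to 0.164.

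The receptors gave no call in the direct comparison. Tnfrsf1a, the main receptor of TNFa, was at 359, 341 and 301 CPM with IL1b and 334, 325 and 369 with TNFa, and at 154 to 195 with PBS. Both cytokines raised it, by a log2 of 0.92 ± 0.09 and 0.96 ± 0.09 against PBS (adjusted p = 8.41e-08 and 2.1e-08), and the difference between them was -0.04 ± 0.10 (adjusted p = 0.848). Tnfrsf1b, the other receptor, gave 214, 207 and 208 CPM with IL1b, 182, 186 and 229 with TNFa and 183 to 274 with PBS, with overlapping groups and no call in any of the 3 comparisons. Il1rap, the shared chain of the IL1 receptor, was at 34.6, 30.8 and 40.2 CPM with IL1b and 18.2, 34.3 and 37.1 with TNFa, again overlapping. Il1r1, the chain that binds IL1b, was scarce throughout, at 0.682, 0.861 and 0.997 CPM with IL1b, 0.688, 0.337 and 0 with TNFa and 0.421 to 2.75 with PBS, and its log2 difference of 1.24 ± 0.96 missed the threshold (adjusted p = 0.432). Il1r2, the decoy receptor, had at most 4 counts in any library and was not tested. Of the 18 genes listed for the IL1 route, these ligands and receptors included, all but Il1r2 were tested. Irak2, a kinase below the IL1 receptor, and Myd88, its adaptor, were both higher with TNFa, Irak2 at 83.5, 70.1 and 64.9 CPM with IL1b against 227, 231 and 258 with TNFa (log2 -1.71 ± 0.19, adjusted p = 2.14e-06) and Myd88 by a log2 of -0.999 ± 0.13 (adjusted p = 1.12e-05). In all, 4 of the 17 tested were higher with TNFa and 1 with IL1b, with a median log2 difference of -0.16 beside 0.04 over all genes. Of the 16 genes of TNF receptors and their proximal signalling, 6 were higher with TNFa (Tnf, Tnfaip3, Traf2, Traf5, Birc2 and Birc3) and 0 with IL1b, with a median of -0.19. For both lists, the shares over all genes were 7.82% higher with TNFa and 8.37% with IL1b.

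The 15 named genes higher with TNFa were all raised by TNFa over PBS, where 26.6% of all genes were raised. Of the 15, 10 were also raised by IL1b, where 20.7% of all genes were. They were chosen for higher levels with TNFa than with IL1b in these same libraries, so neither count is a result about them. The choice also required that the IL1b and TNFa libraries did not overlap, as it did for the 15 genes higher with IL1b. A gap between these 2 groups of libraries is therefore no result for the 15 genes of either direction. Il6, a cytokine of fever and the acute phase (chr5:30013114-30019981, plus strand), was at 2.43, 2.02, 1.97, 2.64 and 1.403 CPM in the PBS libraries, 21.99, 24.97 and 16.6 with IL1b and 263, 260.1 and 266 with TNFa. The 3 TNFa libraries were almost equal and 12.4 times as high in the mean as the IL1b libraries, which were themselves above all PBS libraries. The log2 difference was -3.63 ± 0.21 (adjusted p = 4.29e-10). Acod1, which makes itaconate, a metabolite of activated macrophages (chr14:103046977-103056573, plus strand), gave 148, 77.1 and 63.6 CPM with IL1b and 1371, 1473 and 1418 with TNFa, from 0 to 3.76 with PBS. The first IL1b library was the highest of its group, and still far below every TNFa library. The difference was -3.88 ± 0.42 in log2 (adjusted p = 1.58e-06), or 14.7 times in the mean. Tnfaip3, the ubiquitin-editing inhibitor of NF-kB whose promoter is printed above, was at 9.11 to 16.1 CPM with PBS, 134, 89.0 and 80.2 with IL1b and 402, 694 and 895 with TNFa. Both groups were raised without overlap, the TNFa libraries with a wide spread (log2 -2.72 ± 0.28, adjusted p = 9.45e-07).

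Several of the 15 encode proteins of the cell surface, the matrix or clotting. Flrt3, a membrane protein of cell adhesion, gave 16.7, 7.92 and 9.30 CPM with IL1b and 143, 188 and 163 with TNFa and at most 0.281 with PBS (log2 -3.86 ± 0.24, adjusted p = 1.81e-09). It lies opposite to Macrod2 on the genome, and the strand setting of the counting is not given in the sources used here. Flrt3 was close to absent with PBS, low with IL1b and clearly present with TNFa in every library. F3, tissue factor, which starts clotting, was different: it stood at 2.56, 2.07 and 4.32 CPM with IL1b and 1.72 to 4.20 with PBS, groups that overlapped, and at 15.3, 22.4 and 37.3 with TNFa. The TNFa libraries spread but did not overlap the others (log2 -3.05 ± 0.42, adjusted p = 3.28e-05). Tnfsf9, the ligand of the T-cell costimulator 4-1BB, reached 108, 69.2 and 113 CPM with TNFa against 6.82, 6.89 and 9.14 with IL1b (log2 -3.66 ± 0.34, adjusted p = 2.33e-07). Vcam1, an adhesion molecule for leukocytes, and Mmp14, a membrane-bound matrix protease, had 20.1 to 25.9 and 39.5 to 60.3 CPM with TNFa, 1.21 to 3.16 and 6.15 to 6.99 with IL1b and at most 0.429 with PBS.

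In 5 of the 15 genes, Gem, Ccl5, F3, Gimap9 and Trim13, TNFa raised the level over PBS while IL1b gave no call against PBS. Gem, a small GTP-binding protein, was at 0, 0.578, 1.21, 0.601 and 0.421 CPM in the PBS libraries, 1.19, 1.21 and 0.166 with IL1b and 36.6, 26.8 and 34.5 with TNFa. IL1b libraries lay within the PBS range and the TNFa libraries far above both, the direct log2 difference being -5.23 ± 0.56 (adjusted p = 1.55e-06). Ccl5, a chemokine for T cells and monocytes, showed the same order with 0.341, 0.344 and 1.99 CPM with IL1b and 25.1, 24.9 and 20.8 with TNFa. Here the third IL1b library held most of the group's signal: the log2 difference was -4.68 ± 0.56 with it and -6.03 without it (adjusted p = 6.32e-06 and 7.16e-06). Gimap9, a GTPase best known from lymphocytes, rose from 5.87 to 15.1 CPM with PBS to 66.9, 54.7 and 45.8 with TNFa and was at 7.16, 6.199 and 7.64 with IL1b (log2 -2.99 ± 0.27, adjusted p = 1.63e-07). The summed T cell markers were at 0 to 1.85 CPM with IL1b and 1.19 to 2.03 with TNFa. Those of B cells were at 4.07 to 5.37 CPM with IL1b and 1.36 to 3.68 with TNFa. The part of lymphocytes in the Gimap9 difference was not tested. Trim13, a ubiquitin ligase that overlaps Dleu2 on the other strand, was at 7.84, 4.48 and 6.48 CPM with IL1b and 43.5, 37.5 and 40.4 with TNFa. Rrad, a relative of Gem, differed by a log2 of -2.66 ± 0.41 and was raised by both cytokines. No call among the 15 was lost in any alternative run.

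**Figure D2:**
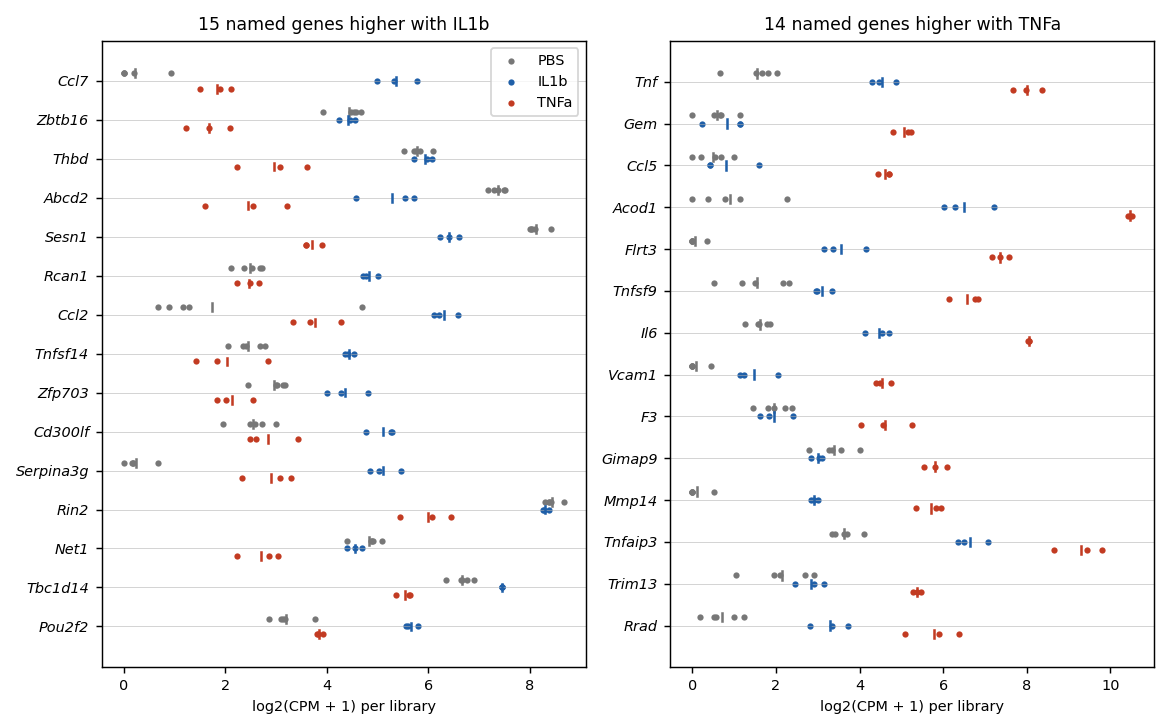
Level of the 15 named genes higher with IL1b (left) and 14 of the 15 higher with TNFa (right) in each library, as log2(CPM + 1). Points are libraries (5 PBS in grey, 3 IL1b in blue, 3 TNFa in red) and the short bars are group means. On the right the order is PBS, IL1b, TNFa in most genes, while on the left the TNFa points lie below the grey PBS points in Zbtb16, Thbd, Abcd2, Sesn1, Rin2, Net1 and Tbc1d14.

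The 15 named genes higher with IL1b were set against PBS in the same way. TNFa lowered 8 of them below PBS (26.7% of all genes) and raised 3 (26.6%). IL1b raised 9 (20.7%) and lowered 2 (16.6%). The genes were chosen for lower levels with TNFa than with IL1b in these same libraries, so these counts are no result beside those shares. The direct difference of the 8 genes included a fall below PBS with TNFa. Zbtb16, a transcription factor also called PLZF (chr9:48654297-48836222, minus strand), was at 24.6, 22.3, 22.9, 14.2 and 21.2 CPM in the PBS libraries, 17.9, 22.4 and 21.1 with IL1b and 3.27, 1.35 and 2.23 with TNFa. The IL1b libraries lay inside the PBS range and all TNFa libraries below it, with a direct log2 difference of 3.16 ± 0.28 (adjusted p = 1.75e-07) and -3.19 ± 0.27 for TNFa against PBS (adjusted p = 3.92e-09). Thbd, thrombomodulin, a receptor that turns thrombin towards anticoagulation, gave 51.8, 66.8 and 62.0 CPM with IL1b, 11.2, 3.70 and 7.42 with TNFa and 44.7 to 67.0 with PBS. It showed the same order, with a direct log2 difference of 3.02 ± 0.25 (adjusted p = 5.99e-08). Rin2, a regulator of endosomal Rab5, was at 312, 304 and 334 CPM with IL1b, 66.0, 42.4 and 86.6 with TNFa and 312 to 406 with PBS (log2 2.29 ± 0.18, adjusted p = 4.39e-08). Net1, an exchange factor for RhoA, followed with 24.9, 20.1 and 22.4 against 7.22, 3.70 and 6.30 CPM (log2 1.97 ± 0.23, adjusted p = 5.37e-06). For these 4 genes the level with IL1b gave no call against PBS. That every TNFa library lay below the IL1b libraries was a condition of their choice.

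In Sesn1 and Abcd2 both cytokines lowered the gene, by different amounts. Sesn1, a sestrin that restrains the growth kinase mTORC1 (chr10:41809935-41908424, plus strand), was at 340.1, 257, 275, 264 and 260.1 CPM in the PBS libraries, 74.3, 83.9 and 96.8 with IL1b and 14.1, 11.1 and 11.1 with TNFa. The 3 groups did not overlap, IL1b lying between the others. It fell by 1.72 ± 0.12 on the log2 scale with IL1b and by 4.52 ± 0.15 with TNFa, and the direct difference of 2.81 ± 0.15 had an adjusted p of 3.48e-10. Abcd2, a peroxisomal transporter of very long-chain fatty acids, stood at 143 to 181 CPM with PBS, 22.8, 51.8 and 45.5 with IL1b and 8.25, 4.88 and 2.04 with TNFa. The first IL1b library was the lowest of its group and still above all TNFa libraries (log2 2.97 ± 0.31, adjusted p = 1.49e-06). Tbc1d14, a regulator of autophagy, and Zfp703, a zinc-finger repressor, moved in opposite directions in the screen: IL1b raised them and TNFa lowered them. Tbc1d14 was at 175, 174 and 173 CPM with IL1b, 48.8, 40.1 and 48.4 with TNFa and 80.4 to 119 with PBS, so that the 3 IL1b libraries were nearly identical and all TNFa libraries were under the PBS range. Its log2 change was 0.78 ± 0.12 with IL1b and -1.15 ± 0.13 with TNFa against PBS (adjusted p = 1.79e-05 and 2.02e-07). Zfp703 was at 18.4, 27.2 and 15.1 CPM with IL1b and 2.58, 3.03 and 4.82 with TNFa around 4.48 to 8.05 with PBS, and the log2 changes were 1.55 ± 0.24 and -0.99 ± 0.29 (adjusted p = 3.22e-05 and 0.00682).

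The remaining genes of the 15 were raised by IL1b over PBS and less, or without a call, by TNFa. Ccl7, a chemokine that draws monocytes (chr11:82045712-82047525, plus strand), had 0, 0.145, 0.911, 0 and 0 CPM in the PBS libraries, 30.7, 54.1 and 39.2 with IL1b and 2.75, 1.85 and 3.34 with TNFa. Every IL1b library was well above every TNFa library, 15.6 times in the mean, with a log2 difference of 3.96 ± 0.49 (adjusted p = 8.94e-06). Its neighbour Ccl2, the main monocyte chemokine, gave 72.8, 68.2 and 95.3 CPM with IL1b and 18.6, 11.8 and 9.09 with TNFa. The PBS libraries were at 0.601 to 1.43 CPM except the third at 24.7, and the call of Ccl2 (log2 2.58 ± 0.74, adjusted p = 0.0206) was lost without the third IL1b library, the second TNFa library or the third TNFa library (adjusted p = 0.0692, 0.0756 and 0.0794) and with DESeq2 (adjusted p = 0.113). It also overlaps a gene model on the other strand. Rcan1, an inhibitor of calcineurin, was at 26.4, 25.1 and 31.2 CPM with IL1b, 5.33, 3.70 and 4.64 with TNFa and 3.34 to 5.64 with PBS. The TNFa libraries were inside the PBS range and the IL1b libraries above both (log2 2.59 ± 0.26, adjusted p = 5.43e-07). Pou2f2, the transcription factor Oct-2, reached 46.4, 54.6 and 47.5 CPM with IL1b and 14.3, 12.96 and 13.2 with TNFa from 6.23 to 12.6 with PBS, raised by both (log2 1.88 ± 0.21, adjusted p = 2.71e-06). Cd300lf, an inhibitory receptor of myeloid cells that lies inside Rab37 on the other strand, had 26.4, 37.7 and 37.9 against 9.80, 5.05 and 4.64 CPM (log2 2.38 ± 0.32, adjusted p = 2.33e-05). Tnfsf14, the cytokine LIGHT, had 20.5, 19.6 and 22.3 against 6.19, 1.68 and 2.60 CPM, a log2 difference of 2.57 ± 0.34 that became 3.25 without the first TNFa library. Serpina3g, a serine protease inhibitor with near-identical neighbours whose reads may be shared, gave 31.7, 42.9 and 27.9 against 8.77, 4.04 and 7.42 CPM and at most 0.607 with PBS.

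The groups of genes fixed for this comparison are described by their counts and medians. The NF-kB subunits, inhibitors and feedback genes leaned to TNFa: of 23 tested, 17 were higher with TNFa and 3 with IL1b, with a median log2 difference of -0.95. Over all genes tested, 7.82% were higher with TNFa and 8.37% with IL1b. Against PBS, IL1b raised 21 of the 23 NF-kB genes and TNFa 23, beside 20.7% and 26.6% of all genes. Icam1, an adhesion molecule, gave 523, 394 and 467 CPM with IL1b, 2372, 1756 and 1743 with TNFa and 15.2 to 26.6 with PBS. All 3 groups were apart, in the order PBS, IL1b, TNFa (log2 -2.09 ± 0.18, adjusted p = 8.7e-08). Traf1, an adaptor of TNF receptors, went from 14.8, 18.1 and 25.9 CPM with IL1b to 109, 80.5 and 107 with TNFa (log2 -2.33 ± 0.25, adjusted p = 1.42e-06). The inhibitor genes moved together, with log2 differences of -1.82 ± 0.15 for Nfkbie, -1.34 ± 0.13 for Nfkbib and -1.02 ± 0.11 for Nfkbia. Sod2, the mitochondrial superoxide dismutase, was at 876 ± 115 CPM with IL1b and 2079 ± 125 with TNFa (SD, n = 3; log2 -1.25 ± 0.10). The 3 that were higher with IL1b were Tnip3, a binding partner of A20 (97.4 against 39.0 CPM, log2 1.32 ± 0.27), Zc3h12a, the ribonuclease Regnase-1 (50.8 against 24.1 CPM, log2 1.07 ± 0.20), and Map3k8, the kinase Tpl2 (96.7 against 51.0 CPM, log2 0.92 ± 0.24). Their adjusted p were 0.00143, 0.000881 and 0.012, and the call of Map3k8 was lost without 1 of 4 of the 6 libraries (the first or the third with IL1b, the second or the third with TNFa; adjusted p from 0.0513 to 0.0688). Across the alternatives run, the count was 17 to 18 higher with TNFa and 2 to 3 with IL1b.

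**Figure D3:**
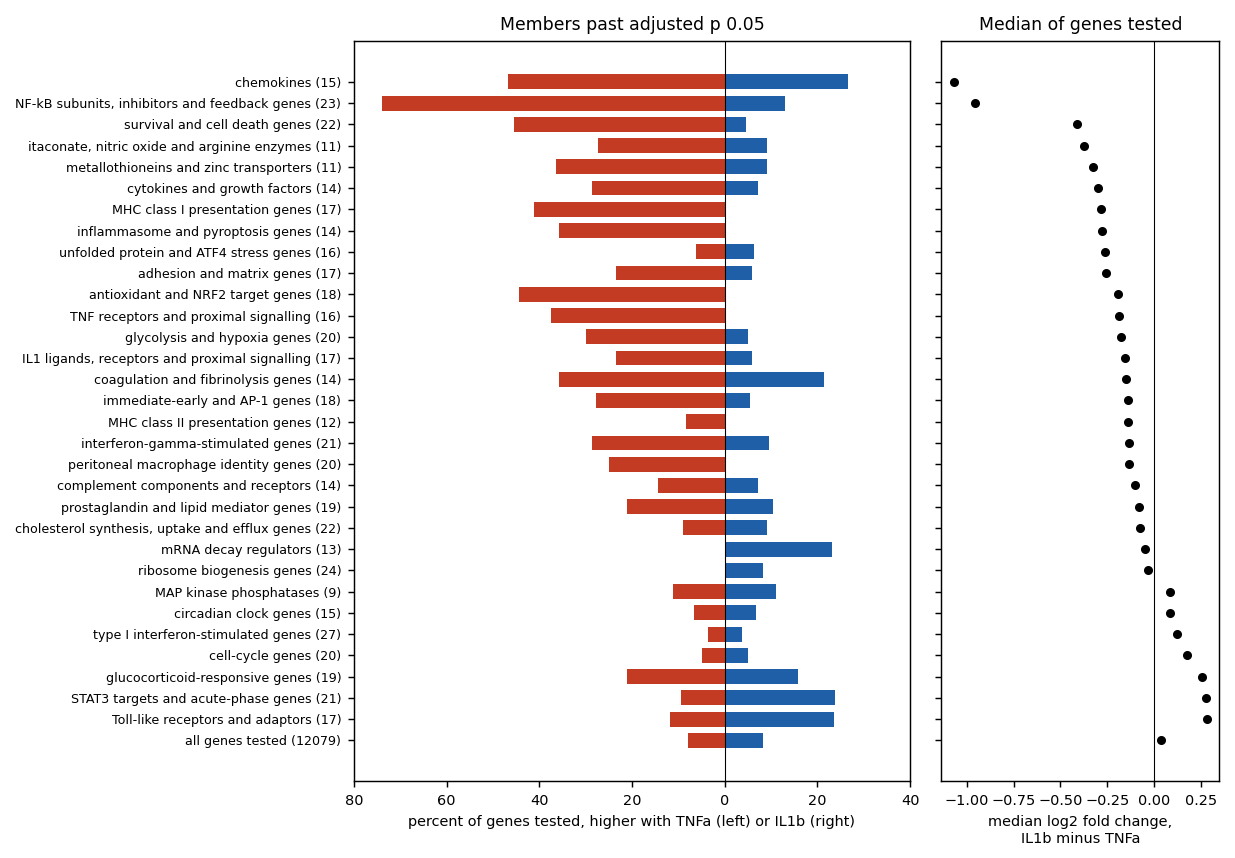
Share of each gene group past an adjusted p of 0.05 (left panel, percent of genes tested; red to the left, higher with TNFa; blue to the right, higher with IL1b) and the median log2 fold change, IL1b minus TNFa (right panel). The number tested is in brackets and the last line holds all 12079 genes tested. The NF-kB group has the longest red bar, and chemokines have the lowest median, -1.07.

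Chemokines split in both directions. Of 15 tested, 7 were higher with TNFa and 4 with IL1b, where 7.82% and 8.37% of all genes were, and 12 were raised over PBS by each cytokine, where TNFa raised 26.6% and IL1b 20.7% of all genes. The 4 higher with IL1b were Ccl2, Ccl7, Ccl12 and Ccl6, all of the CC class. Ccl12, a further monocyte chemokine next to Ccl2 and Ccl7, had 0 counts in the 5 PBS libraries, 11.9, 17.6 and 18.8 CPM with IL1b and 1.72, 0.842 and 2.41 with TNFa. The level with IL1b was at least 193-fold higher than with PBS, taking 3 counts over the PBS group as the floor, and the direct log2 difference was 3.28 ± 0.45 (adjusted p = 7.85e-05). Ccl6 was abundant in all libraries, 2557 ± 255 CPM with IL1b and 1606 ± 146 with TNFa (SD, n = 3; log2 0.67 ± 0.10). The 7 higher with TNFa were Ccl5, Ccl9, Ccl24, Cxcl1, Cxcl3, Cxcl13 and Cxcl16, of which Cxcl16 was lost without the second or the third IL1b library or the first or the third TNFa library (adjusted p from 0.0519 to 0.196). Cxcl3, a chemokine for neutrophils, was at 18.4, 26.0 and 21.9 CPM with IL1b and 118, 93.9 and 106 with TNFa, and at most 0.480 with PBS (log2 -2.26 ± 0.23, adjusted p = 9.63e-07). Cxcl1, of the same family, differed by -1.53 ± 0.33 (adjusted p = 0.0024, and 0.062 with DESeq2), and Cxcl13, which draws B cells, by -1.29 ± 0.28. Among other cytokines and growth factors, 4 of 14 were higher with TNFa (Il6, Tnfsf9, Il27 and Csf1) and 1 with IL1b, Il27 losing its call without the second or the third IL1b library (adjusted p = 0.0577 and 0.0532). Csf1, the growth factor of macrophages, was at 16.9, 9.30 and 8.97 against 37.7, 38.5 and 45.6 CPM (log2 -1.79 ± 0.24, adjusted p = 2.49e-05). Il15, a cytokine of NK and memory T cells, was the one higher with IL1b, 12.6, 7.75 and 7.97 against 2.92, 2.02 and 3.71 CPM, with PBS at 7.72 to 17.9. TNFa lowered it and IL1b gave no call against PBS (direct log2 1.71 ± 0.39, adjusted p = 0.00372).

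Genes that respond to interferons gave few calls for type I and more for interferon-gamma. Of 27 type I interferon-stimulated genes, 1 was called in each direction, against 16.2% of all genes in either direction, and both calls, Ifit3 and Trim30a, were lost when single libraries were left out. Among 21 genes of the interferon-gamma group, 6 were higher with TNFa and 2 with IL1b. Irf1, a transcription factor of that response, was at 49.0 to 81.7 CPM with PBS, 54.7, 54.9 and 62.0 with IL1b and 236, 164 and 210.3 with TNFa. IL1b left it inside the PBS range and TNFa raised it in every library, a log2 difference of -1.83 ± 0.17 (adjusted p = 2.36e-07). Gbp5, a guanylate-binding protein, was raised by both and more by TNFa, 20.02 against 66.8 CPM in the mean (log2 -1.74 ± 0.24, adjusted p = 2.85e-05). Class I antigen presentation genes went the same way: 7 of 17 were higher with TNFa and 0 with IL1b, where 7.82% and 8.37% of all genes were, and their median was -0.28. TNFa raised 12 of them over PBS and IL1b 4, beside 26.6% and 20.7% of all genes. Psme2, a proteasome activator, differed by -0.79 ± 0.12, Tap2, a peptide transporter, by -0.62 ± 0.11 and the class I molecule H2-K1 by -0.44 ± 0.10. Of 12 class II genes, Cd40, the costimulatory receptor, was the 1 called, 169, 124 and 142 against 361, 307 and 278 CPM (log2 -1.12 ± 0.14, adjusted p = 1.12e-05).

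STAT3 targets and acute-phase genes were called in both directions. Of 21 tested, 5 were higher with IL1b and 2 with TNFa, beside 8.37% and 7.82% of all genes, with a median of 0.28. The split was not stable, at 4 and 3 with DESeq2's size factors, 5 and 4 with no filter on low counts and 4 and 4 with the libraries numbered 1 to 3 alone. IL1b raised 19 and TNFa 17 of them over PBS, where 20.7% and 26.6% of all genes were raised. Il6ra, the receptor of IL6, was at 93.0 to 142 CPM with PBS, 81.7, 75.9 and 92.8 with IL1b and 28.9, 34.0 and 28.7 with TNFa. Both cytokines lowered it, TNFa by more (direct log2 1.45 ± 0.16, adjusted p = 2.31e-06). Lcn2, the iron-binding lipocalin, gave 55.6, 81.1 and 58.8 CPM with IL1b, 28.0, 23.7 and 23.4 with TNFa and 1.68 to 3.95 with PBS, so that both groups rose and IL1b was higher in every library (log2 1.38 ± 0.23, adjusted p = 0.000198). Il4ra, the receptor chain for IL4 and IL13, was also raised by both, with a direct log2 difference of 0.68 ± 0.09 (adjusted p = 1.48e-05). Arid5a, an RNA-binding protein that stabilises Il6 mRNA, was higher with IL1b as well (104 against 64.1 CPM, log2 0.70 ± 0.14). Zc3h12a, which degrades Il6 mRNA, is named above with the same direction, while Il6 itself was higher with TNFa. Saa3, an acute-phase protein, went against the group, 10480.5, 7677 and 7495 CPM with IL1b and 16505, 18654 and 20780.0 with TNFa (log2 -1.12 ± 0.14, adjusted p = 1.34e-05). Glucocorticoid-responsive genes were divided, 3 of 19 higher with IL1b and 4 with TNFa. Fkbp5, a chaperone of the glucocorticoid receptor, and Tsc22d3, the protein GILZ, were higher with IL1b by 0.70 ± 0.14 and 0.80 ± 0.19. The metallothioneins Mt1 and Mt2, which bind zinc, were higher with TNFa: Mt1 stood at 1310.0, 1285 and 1194 CPM with IL1b and 2840.5, 2819 and 3379 with TNFa (log2 -1.25 ± 0.15, adjusted p = 4.65e-06).

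Genes of cell survival, inflammasomes and antioxidant defence held more calls towards TNFa, where over all genes 7.82% were higher with TNFa and 8.37% with IL1b. Of 22 survival and cell death genes, 10 were higher with TNFa and 1 with IL1b, with a median of -0.41. Bcl2a1d, a protector of mitochondria from a family of near-identical copies, differed by -1.77 ± 0.18, and Cflar, which blocks caspase-8, by -1.08 ± 0.13. Bcl2l1, the Bcl-xL gene, was the exception, 425 against 288 CPM (log2 0.56 ± 0.14, adjusted p = 0.0083). Of 14 inflammasome and pyroptosis genes, 5 were higher with TNFa and 0 with IL1b. Nlrp3, the sensor, gave 57.3, 36.5 and 43.3 CPM with IL1b, 143, 214 and 195 with TNFa and 12.5 to 26.7 with PBS (log2 -2.01 ± 0.23, adjusted p = 3.39e-06), and Mefv, which encodes pyrin, gave 25.6, 19.3 and 18.4 against 99.0, 69.5 and 108 (log2 -2.12 ± 0.31, adjusted p = 5.5e-05). Both genes rose with each cytokine and more with TNFa in every library. Of 18 antioxidant and NRF2 target genes, 8 were higher with TNFa and 0 with IL1b. Fth1, the ferritin heavy chain, was at 4315, 3312 and 3294 CPM with IL1b and 9506, 9784 and 9964 with TNFa over 1392 to 1787 with PBS (log2 -1.42 ± 0.11, adjusted p = 4.38e-08). Prdx5, a peroxiredoxin, was at 659, 639 and 622 CPM with IL1b, inside or next to the PBS range of 593 to 653, and at 1252, 1234 and 1288 with TNFa (log2 -0.98 ± 0.08, adjusted p = 4.2e-08).

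Receptors and enzymes went both ways. Among 17 Toll-like receptors and adaptors, 4 were higher with IL1b and 2 with TNFa, beside 8.37% and 7.82% of all genes. Tlr4, the receptor for bacterial lipopolysaccharide, was at 139, 110.0 and 95.2 CPM with IL1b, 64.6, 63.0 and 71.2 with TNFa and 50.7 to 59.4 with PBS. IL1b raised it and TNFa gave no call against PBS (direct log2 0.79 ± 0.15, adjusted p = 0.000855). Its partner Ly96 was also higher with IL1b, by 0.90 ± 0.18, whereas Cd14, which hands lipopolysaccharide to that complex, was at 2107, 1523 and 1742 CPM with IL1b and 4699.6, 5265 and 5176 with TNFa (log2 -1.49 ± 0.19, adjusted p = 1.12e-05). Tlr8 was lowered by TNFa, with 29.5, 22.6 and 42.4 CPM with IL1b, 10.5, 13.3 and 11.5 with TNFa and 36.4 to 61.2 with PBS. In the arginine and itaconate group, Slc7a2, an arginine transporter, was higher with TNFa (452, 477 and 409 against 1176, 1924 and 1660.0 CPM, log2 -1.83 ± 0.16, adjusted p = 8.7e-08). Arg1, arginase, was higher with IL1b (414, 807 and 562 against 349, 311 and 247 CPM, log2 0.97 ± 0.21, adjusted p = 0.00218). Ptges, which makes prostaglandin E2, showed a wide gap in the lipid group, 409.9, 281 and 250.1 CPM with IL1b and 1428, 1907 and 2126 with TNFa from 24.0 to 47.4 with PBS (log2 -2.54 ± 0.20, adjusted p = 5.41e-08). C3ar1, the receptor for complement C3a, was at 634, 495 and 555 CPM with IL1b, 226, 204 and 230.1 with TNFa and 526 to 667 with PBS, so that TNFa lowered it and IL1b gave no call against PBS (log2 1.35 ± 0.11, adjusted p = 5.99e-08). C5ar1, the receptor for C5a, differed in the opposite direction, by -0.94 ± 0.11. Xbp1, a transcription factor of the unfolded protein response, was at 1389, 1346 and 1417 CPM with IL1b and 658, 814 and 788 with TNFa (log2 0.88 ± 0.11, adjusted p = 7.47e-06), and Myc, which drives growth genes, at 829, 639 and 707 and 427, 419 and 385 (log2 0.82 ± 0.17, adjusted p = 0.00212). Both were raised by each cytokine over PBS and more by IL1b.

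Further groups are given by their counts, beside the 8.37% of all genes that were higher with IL1b and the 7.82% higher with TNFa. All 24 ribosome biogenesis genes tested were raised over PBS by each cytokine, where IL1b raised 20.7% and TNFa 26.6% of all genes. Of the 24, 2 (Wdr12 and Rrp1b) were called in the direct comparison, both higher with IL1b and both lost without single libraries. Cholesterol genes gave 2 calls in each direction of 22, circadian clock genes 1 in each direction of 15 and cell-cycle genes 1 in each direction of 20. Of 20 genes that mark peritoneal macrophages, 5 were higher with TNFa and 0 with IL1b. Gata6 was at 14.3, 22.2 and 13.3 CPM with IL1b, 23.04, 29.8 and 27.3 with TNFa and 24.7 to 35.1 with PBS, and Timd4, a receptor for dying cells, at 684, 733 and 709.9 and 1068, 1402 and 1150.0. The log2 differences were -0.69 ± 0.21 and -0.77 ± 0.16 (adjusted p = 0.0276 and 0.00157). The call of Gata6 was lost without the first or the third IL1b library or the second or the third TNFa library (adjusted p from 0.057 to 0.142). Among markers of other cells, Irf4 was at 8.87, 15.3 and 6.81 CPM with IL1b, 4.13, 0.337 and 1.48 with TNFa and 37.8 to 59.9 with PBS, and thus was lowered by both and more by TNFa (log2 2.37 ± 0.45, adjusted p = 0.000844, and 3.49 without the first TNFa library). Cd209a, a lectin of dendritic cells and small macrophages, was higher with IL1b (40.9 against 17.0 CPM, log2 1.27 ± 0.20, adjusted p = 0.000154), and Zbtb46, a dendritic cell factor, was higher with TNFa (13.5 against 28.8 CPM, log2 -1.09 ± 0.31, adjusted p = 0.0197), a call lost without the second or the third library of either group (adjusted p from 0.0627 to 0.107). Flt3 and Xcr1, further dendritic cell markers, stayed at or below 0.511 CPM in every library. Summed dendritic cell markers were 49.97 to 58.3 CPM with IL1b, 38.5 to 51.8 with TNFa and 18.7 to 28.6 with PBS. The part of these marker differences in the results above was not tested.

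A separate TNFa time course gave the TNFa side in other libraries of these cells, with 2 libraries at each of 2, 4, 8 and 24 h and 2 PBS libraries at 24 h. TNFa at 2 h against PBS at 24 h raised 18.1% and lowered 18.1% of the 12376 genes tested there, 2240 and 2234 genes, but between 2704 and 2919 in all when any 1 of the 4 libraries was left out. All 15 named genes higher with TNFa were raised. Tnf was at 1.86 and 0.676 CPM with PBS, 248 and 253 at 2 h, 119 and 88.4 at 4 h, 2.62 and 2.84 at 8 h and 0.994 and 0 at 24 h. It was highest at 2 h and back near the PBS level by 8 h (log2 7.62 ± 0.43 at 2 h, adjusted p = 6.87e-08). Il6 was at 224 and 233 CPM at 2 h, 276 and 237 at 4 h and 14.3 and 41.4 at 8 h, and was still above PBS (4.43 and 1.76) in both libraries at 8 h. The plot of the time course shows Flrt3 and Acod1 with the same early peak.

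**Figure D4:**
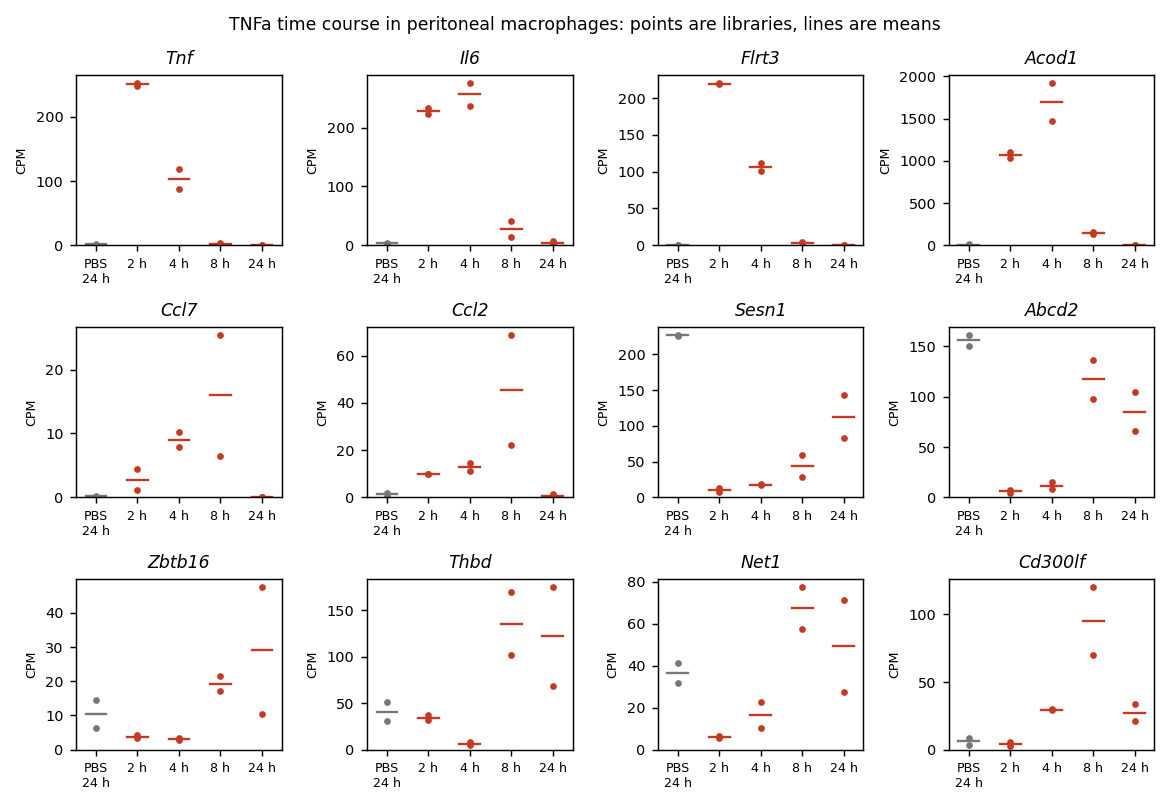
Level (CPM, linear axis from 0) of 12 named genes in the TNFa time course: PBS at 24 h in grey and TNFa at 2, 4, 8 and 24 h in red, with points for the 2 libraries of each time and lines for their means. Tnf, Il6, Flrt3 and Acod1 are high at 2 and 4 h, Sesn1, Abcd2 and Net1 are low there, and Ccl7, Ccl2 and Cd300lf have their highest mean at 8 h.

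Among the 15 genes higher with IL1b, the time course at 2 h lowered 4 (Abcd2, Sesn1, Rin2 and Net1) and raised 3 (Ccl7, Rcan1 and Ccl2). Sesn1 was at 228 and 226 CPM with PBS and 13.3 and 7.71 at 2 h, and rose again to 83.1 and 143 at 24 h, when both libraries were still below PBS (log2 -4.41 ± 0.38 at 2 h, adjusted p = 1.85e-06). Net1 fell to 5.62 and 6.39 CPM at 2 h from 41.3 and 31.8 and stood at 57.4 and 77.7 at 8 h, above PBS. Thbd and Zbtb16 gave no call at 2 h (adjusted p = 0.654 and 0.0856). Tbc1d14 and Zfp703, also lowered by TNFa in the screen, gave no call there either. Thbd was at 31.7 and 37.2 CPM at 2 h, near its PBS level of 30.4 and 51.6, and only the 4 h libraries, at 8.31 and 4.78, were as low as the TNFa libraries of the screen (3.70 to 11.2). Ccl7 was at 1.12 and 4.41 CPM at 2 h, 10.2 and 7.92 at 4 h and 6.47 and 25.4 at 8 h, so that its level with TNFa at 8 h came near that with IL1b at 2 h (30.7 to 54.1) in 1 of 2 libraries. The 2 h calls were lost without single libraries for Ccl7 (3 of the 4 left out in turn, adjusted p up to 0.215), Rcan1 (each of the 4, up to 0.274) and Ccl2 (1 of the 4, 0.0631). No IL1b time course was analysed here, so the later levels of these genes after IL1b were not compared.

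The same direct comparison was then set against Ly6C+ monocytes (Mo.6C+) and red pulp macrophages (MFrp) of the spleen, each with 3 IL1b and 3 TNFa libraries. In 1 fit over the 3 cell types, the IL1b-to-TNFa difference itself differed between peritoneal macrophages and monocytes for 187 of 15333 genes (1.22%) and between peritoneal and red pulp macrophages for 238 (1.55%). In that fit, with 1 estimate of spread for all 3 cell types, the direct comparison gave 476 calls in peritoneal macrophages (221 higher with IL1b and 255 with TNFa) in place of 1955, and 1573 in monocytes and 1409 in red pulp macrophages. Of the 15 named genes in each direction, Ccl2 and Net1 missed the threshold there (adjusted p = 0.0832 and 0.0504) and the others passed it. The count of 187 became 113 without any single one of the 3 IL1b libraries of the peritoneal cells, 116 and 114 without their first and second TNFa library, and 344, 110 and 96 without the first, second and the third IL1b library of the monocytes. The count of 238 became 139 and 136 without the second and the third peritoneal IL1b library, 140 and 134 without the third and second peritoneal TNFa library, and 139 without the second IL1b library of the red pulp cells. Bcl6, a transcriptional repressor, had opposite directions: the log2 difference between IL1b and TNFa was 1.57 ± 0.29 in peritoneal macrophages, -1.70 ± 0.26 in monocytes and -1.32 ± 0.26 in red pulp macrophages. The peritoneal value exceeded the others by 3.27 ± 0.39 (adjusted p = 2.1e-06) and 2.90 ± 0.39 (adjusted p = 4.65e-05). In CPM, Bcl6 was at 18.5 ± 3.81 with IL1b and 6.22 ± 1.55 with TNFa in peritoneal macrophages, and at 29.4 ± 5.93 and 95.6 ± 36.6 in monocytes (SD, n = 3). Swap70, a protein of actin and Rac signalling, showed the same opposition with 0.91 ± 0.26 in peritoneal macrophages against -2.17 ± 0.26 in monocytes (adjusted p = 2.1e-06 for the difference).

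Further named genes differed between the cell types. Sesn1 differed by 2.83 ± 0.33 between IL1b and TNFa in peritoneal macrophages, by 0.07 ± 0.35 in monocytes and by 0.36 ± 0.31 in red pulp macrophages. Its differences from the other cells, 2.75 ± 0.48 and 2.47 ± 0.45, passed the test (adjusted p = 0.000787 and 0.00133), the first falling to 1.94 without the second TNFa library of the monocytes. Rcan1 and Rin2 had larger differences in peritoneal than in red pulp macrophages, by 2.68 ± 0.46 and 1.99 ± 0.41 (adjusted p = 0.000665 and 0.00493). Serpina3g was higher with IL1b in peritoneal macrophages (2.36 ± 0.39) and higher with TNFa in red pulp macrophages (-1.43 ± 0.34). Cd33, an inhibitory sialic acid receptor, gave -0.02 ± 0.30 in peritoneal macrophages, while it was higher with IL1b by 2.80 ± 0.32 in monocytes and by 3.18 ± 0.35 in red pulp macrophages (adjusted p = 0.000129 and 6.99e-05 for the differences). Slfn1, a schlafen gene, was higher with IL1b in all 3 cell types and by less in peritoneal than in red pulp macrophages, the difference being -4.43 ± 0.59 (adjusted p = 4.65e-05). That value was -3.75 without the second and -5.03 without the third TNFa library of the red pulp cells. For Tnf and Il1a, the log2 values were -3.49 ± 0.43 and -2.62 ± 0.34 in peritoneal macrophages, -3.25 ± 0.42 and -3.71 ± 0.46 in monocytes and -2.57 ± 0.41 and -3.11 ± 0.34 in red pulp macrophages. All 6 were towards TNFa, and no difference between cell types passed the test for these 2 genes (adjusted p from 0.525 to 0.985).

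**Figure D5:**
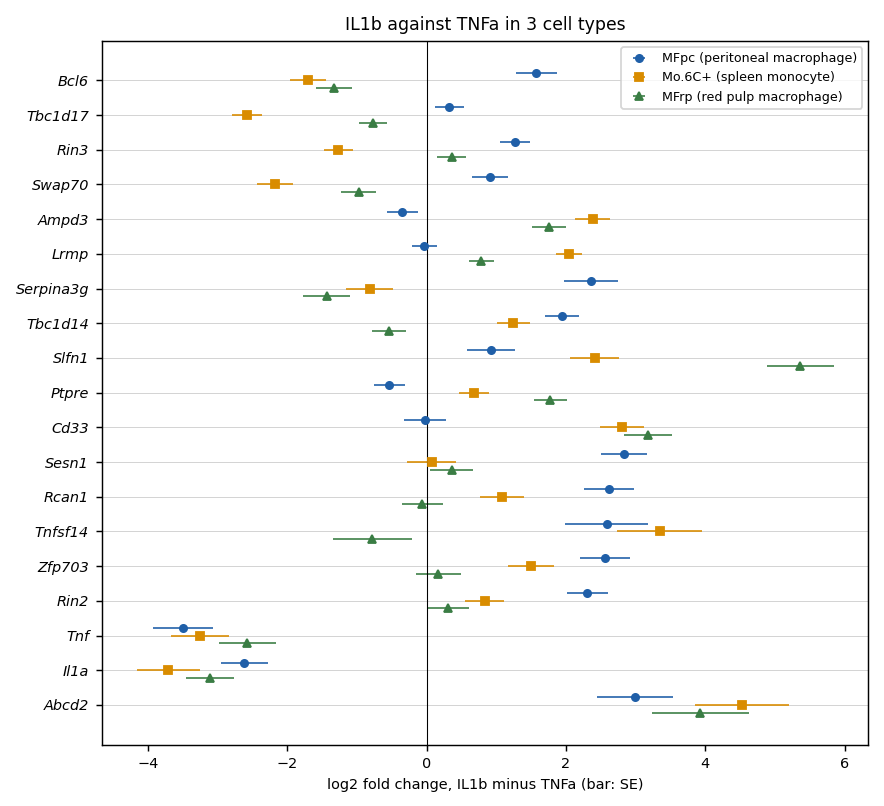
Log2 fold change, IL1b minus TNFa, of 19 named genes in peritoneal macrophages (circles), spleen Ly6C+ monocytes (squares) and red pulp macrophages (triangles), with bars for the standard error of the fit (n = 3 libraries per group). Bcl6, Swap70 and Serpina3g lie right of 0 in peritoneal macrophages and left of 0 in both spleen cells, and Tnf and Il1a lie left of 0 in all 3.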

How the data were processed

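RNA was measured in sorted peritoneal macrophages. The deposited values are the authors' raw read counts per gene symbol, 1 column per library, not normalized. The submitters' processing notes name STAR 2.7.3a, mm10 and featureCounts. The version of featureCounts, the annotation and the handling of strand and multiply mapped reads are not given in the sources consulted here. All 14 screen libraries of these cells (5 PBS, 3 IL1b, 3 IL6, 3 TNFa) entered 1 fit in edgeR 4.0.16 (R 4.3.3, limma 3.58.1): filterByExpr, TMM factors, quasi-likelihood test and Benjamini-Hochberg adjustment over all genes tested, with a threshold of 0.05. Standard errors are the log2 fold change divided by the square root of F. CPM use TMM library sizes, with the factors for marker sums taken before genes were filtered. The 3 cell types (with PBS, IL1b, IL6 and TNFa libraries) and the time course had fits of their own. Scripts were tested on simulated data.

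The members and lists were chosen with earlier results of these data known. Named genes were the ligands and receptors and the 15 called genes per direction with the largest folds. The 15 needed a higher group averaging 20 CPM or more and no overlap, and markers of other cells were left out. Symbols of predicted genes, Riken clones, pseudogenes, mitochondrial genes and antigen receptor segments were left out too. Up to 4 genes per list by adjusted p and 6 per cell type difference were also named. Traf1, Traf2, Traf5, Tnip3, Map3k8, Ccl6, Ccl12, Ccl24, Cxcl1, Cxcl16, Il27, Fkbp5, Tsc22d3, Bcl2l1, Ly96, Gata6, Irf4, Cd209a and Zbtb46 were added after their values were seen. Values of 1 of the 15 genes higher with TNFa are not reported here. The floor for a group at 0 was 3 counts, and such intervals and floors cover counting error only. No library of a group was identical to another: chi-square per degree of freedom between replicates was 5.0 to 17.8. Gene positions come from the GENCODE annotation of GRCm38. Alternatives were DESeq2 1.42.0, limma-voom, other size factors and filters, thinned counts, fewer libraries, a replicate block and leaving out each library.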

Additional observations from a re-analysis of the deposited data

Results flagged for a closer look

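Among the 5 PBS libraries, single values of 9 of 49 named genes stood apart from the other 4, where chance gives about 1 in 20 for values that are not mostly 0. High values were seen for Ccl7 (0.911 CPM) and Ccl2 (24.7) and Serpina3g (0.607) in PBS library 3, for Sesn1 (340.1), Pou2f2 (12.6) and Mmp14 (0.429) in PBS library 1, for Vcam1 (0.360) in PBS library 4 and for Flrt3 (0.281) in PBS library 5. For Flrt3, Vcam1 and Mmp14 the other 4 libraries were at 0, so any read would stand apart, and the rate of chance does not apply to them. The level of Zfp703 in PBS library 2 was low (4.48 CPM). None of these libraries enters the direct comparison of IL1b with TNFa other than through the shared estimate of spread.

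The log2 difference between IL1b and TNFa differed between peritoneal macrophages and a spleen cell type in 28 of 98 comparisons of named genes, part of which were named because they passed this test. Over all genes, 1.22% differed from the monocytes and 1.55% from the red pulp macrophages, and the share among named genes is no result about them. Against Ly6C+ monocytes, the peritoneal value was higher by 2.16 for Il1rn, 1.02 for Tnfrsf1b, 2.75 for Sesn1, 3.17 for Serpina3g, 2.90 for Tbc1d17, 2.53 for Rin3, 3.09 for Swap70 and 3.27 for Bcl6. The difference was -4.99 for Thbd, -2.73 for Ampd3, -2.07 for Lrmp, -1.22 for Ptpre and -2.82 for Cd33. Against red pulp macrophages, the peritoneal value was higher by 2.47 for Sesn1, 2.68 for Rcan1, 3.36 for Tnfsf14, 2.39 for Zfp703, 3.79 for Serpina3g, 1.99 for Rin2, 2.49 for Tbc1d14, 1.46 for Pou2f2, 1.10 for Tbc1d17, 1.89 for Swap70 and 2.90 for Bcl6. The difference was -2.11 for Ampd3, -4.43 for Slfn1, -2.31 for Ptpre and -3.20 for Cd33. The calls of Il1rn, Tnfrsf1b and Thbd against monocytes, and of Tnfsf14 and Pou2f2 against red pulp macrophages, were lost when single libraries were left out. Without the first TNFa library of the monocytes, the difference for Thbd was -6.95 and missed the threshold.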

How the results depend on the processing

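The direct comparison gave 1690 to 2186 calls under the alternatives that kept all libraries of both groups and 1333 to 1912 when 1 library was left out, against 1955. The fit over 3 cell types, with a spread shared by all of them, called 476 in the peritoneal cells, and the cause was not tested. With DESeq2's size factors 910 genes were higher with IL1b and 1058 higher with TNFa, so that the share higher with IL1b went from 51.7% to 46.2%. With no filter on low counts, 389 genes differed between peritoneal macrophages and monocytes (187 with the filter) and 474 between peritoneal and red pulp macrophages (238). Leaving out single libraries gave 96 to 344 and 134 to 273 for these counts, and 2704 to 2919 for TNFa at 2 h in the time course (4474 with all), where the remaining lone library is assumed to vary like the others. Receptor differences near 0 turned: leaving out single libraries gave -0.129 to 0.0302 for Tnfrsf1a (positive without the third IL1b library), -0.0444 to 0.395 for Il1rap and -0.0087 to 0.163 for Tnfrsf1b (both negative without the first TNFa library). Libraries of equal number did not deviate together (r = -0.0729, 0.0117 and -0.0144). A fit with the number as a replicate block called 1897 genes for IL1b against TNFa, against 1976 for the same libraries without it (chosen after seeing the data); the block counts were 3908 for IL1b against PBS, 5848 for TNFa against PBS, 137 against monocytes and 225 against red pulp macrophages. Of the 254 values called for named genes, 216 kept their call in every alternative run (the fit over 3 cell types aside), 38 lost it in at least 1, and 0 changed direction.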
